A study of Rattus norvegicus with 10 samples.

Results

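The genes examined here encode the matrix around neurons: 4 lecticans (Acan, Bcan, Ncan and Vcan), 3 link proteins (Hapln1, Hapln2 and Hapln4), 2 tenascins (Tnr and Tnc) and the hyaluronan synthase Has2. They were chosen by gene symbol. Where several transcripts in the count matrix carried one symbol, the transcript with the highest mean count was taken. All 10 genes were found among the 32041 features (transcript rows) of the matrix, and all 10 were among the 22447 features with enough counts to be tested.

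Perineuronal nets are dense coats of extracellular matrix on the cell bodies and proximal dendrites of certain neurons, best known on parvalbumin interneurons. Hyaluronan chains, spun out at the cell surface by hyaluronan synthases, form the backbone. Lecticans are chondroitin sulfate proteoglycans that bind hyaluronan through one end and tenascins through the other, and link proteins lock the lectican to the hyaluronan. A looser matrix of the same families fills the space between cells, and several of its genes are also transcribed by astrocytes and by cells of the oligodendrocyte lineage.

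Messenger RNA was sequenced from hippocampal tissue (CA3 and dentate gyrus, left side) of 10 male Sprague-Dawley rats of 290 to 320 g. All had electrodes placed in the left lateral amygdala under isoflurane and butorphanol. The 5 sham rats (rats 1 to 5) received no current. The 5 stimulated rats (rats 6 to 10) received trains of 400 µA pulses at 60 Hz for 30 min, which evoke status epilepticus, and by the methods of the study later had spontaneous seizures. Status epilepticus was ended with diazepam, at a first dose of 20 mg/kg. According to the methods, stimulation was prolonged in animals that had not entered status epilepticus. Diazepam was repeated where the first dose failed, and which rats this concerned was not stated. Both groups were sampled 3 months afterwards, the labels name no genetic modification, and Sprague-Dawley rats are outbred. Stimulation, status epilepticus, diazepam and later seizures came together in one group and cannot be told apart.

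Counts over all transcript rows came to between 13552309 and 24086059 per rat. Unaligned reads, as a share of unaligned reads plus these counts, lay between 32.8 and 37.1% in the sham rats. In the stimulated rats they lay between 32.0 and 45.1%, with rats 8, 9 and 10 (41.4, 42.9 and 45.1%) above every sham rat. Prox1, a transcription factor of dentate granule cells, was counted in each rat, at 21.3 to 52 CPM (counts scaled to a normalised library of one common size). Stimulated rats 7, 9 and 10 stood apart in immediate early genes, which neurons transcribe after activity: their mean log2 CPM over 10 such genes was 5.32, 5.71 and 5.57, against 2.90 to 3.41 in the other 7 rats. Rats 7, 9 and 10 had the highest level of 4, 2 and 1 of the 10 matrix genes. Rats 2, 3 and 6 had the highest level of 1 gene each. Values are therefore given for every rat.

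Ncan, Tnc and Has2 were the genes higher in stimulated rats at an unadjusted p-value under 0.05, and none of the 10 genes was called at an adjusted p-value under 0.05. The 250 bases before the annotated starts of Ncan and Tnc are shown because these were the more deeply counted of the 3. They are RefSeq sequences of the GRCr8 build, a later build than the one the reads were aligned to, and no window for Has2 was used here. Ncan lies on the plus strand at chr16:19335657-19335906 and Tnc on the minus strand at chr5:82476132-82476381. Capitals mark each TATAA or its reverse complement TTATA, the core of the TATA box that positions transcription starts.

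Ncan: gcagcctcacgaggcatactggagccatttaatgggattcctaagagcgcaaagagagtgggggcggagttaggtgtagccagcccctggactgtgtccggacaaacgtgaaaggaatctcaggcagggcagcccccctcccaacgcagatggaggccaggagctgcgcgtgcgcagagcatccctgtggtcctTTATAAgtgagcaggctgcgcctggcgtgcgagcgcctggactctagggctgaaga

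Tnc: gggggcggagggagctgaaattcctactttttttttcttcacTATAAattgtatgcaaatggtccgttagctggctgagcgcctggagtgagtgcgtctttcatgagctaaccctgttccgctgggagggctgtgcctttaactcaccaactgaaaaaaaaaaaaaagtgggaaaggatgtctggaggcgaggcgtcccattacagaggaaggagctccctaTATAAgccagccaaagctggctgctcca

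The last match began 55 bases before the start in Ncan and 28 bases before the start in Tnc. Windows were present for 9 of the 10 genes, with 2 windows for Vcan. The same letters on either strand occurred in 5 of these 10 windows, those of Ncan, Tnc, Tnr, Hapln4 and Vcan, and in 24% of 33469 rat promoter windows of the same length. The pattern TGANTCA, in which N is any base, takes in the AP-1 site bound by Fos and Jun proteins and is wider than it. This pattern occurred in 0 of the 10 windows and in 6.34% of all windows. The cAMP response element (TGACGTCA) and a STAT motif (TTCNNNGAA) also occurred in 0 of the 10, beside 1.59% and 7.67% of all windows. These are matches of letters in a short window and say nothing of whether a factor binds.

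The design asks whether expression of these genes differed between epileptic and sham rats. In edgeR's quasi-likelihood test over all 22447 features, 0 of the 10 genes and 0% of features reached an adjusted p-value under 0.05. At an unadjusted p-value under 0.05, 3 of the 10 were higher in stimulated rats, beside 6.7% of all features, and 0 were lower, beside 3.16%. At an unadjusted p-value under 0.001, the cut-off of the study, there were 0 of 10, beside 0.174%. The count of 0 depends on the test. In edgeR's likelihood ratio test on the same 10 rats, the unadjusted p of Tnc was 0.000375. It was 0.00181 for Ncan and 0.00211 for Has2. The study applied its cut-off with fewer stimulated animals than are labelled and did not say which were used. Its calls and these rest on different sets of rats and may rest on different edgeR tests. The study's list of altered genes in this model, chosen from these animals, includes Ncan and, among the other genes described below, Cd44, Mmp9, Timp1, Adamts1, Fos and Gadd45a. The values of these genes are therefore no independent evidence of their direction. The groups did not overlap, with all stimulated rats higher, for 1 of the 10 genes and for 0.695% of features. Differences are given as the log2 fold change of stimulated over sham rats (log2FC) with its standard error (SE). The median log2FC was 0.18 for the 10 genes and 0.01 for all features, with 6 genes above 0 and 4 below. In this bulk tissue a change in the share of a cell type and a change in RNA per cell cannot be told apart.

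**Figure D1:**
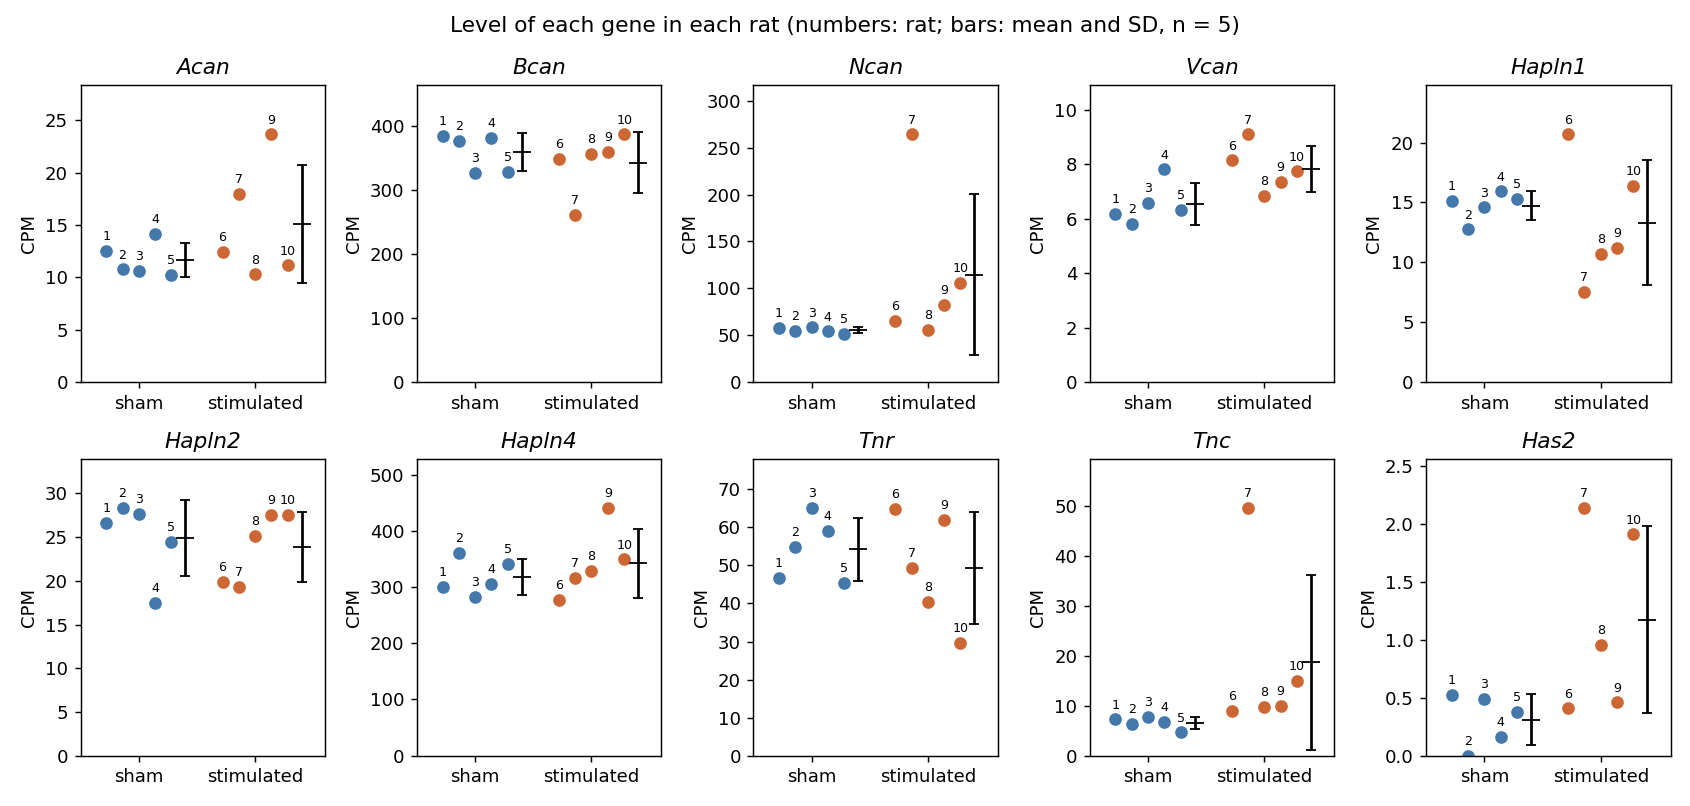
CPM of each of the 10 genes (vertical axes, one scale per gene, starting at 0) in sham and stimulated rats; points are rats, labelled by number, and bars give the mean and SD of 5 rats. Rat 7 is highest for Ncan, Tnc and Has2, and the groups are apart without overlap for Tnc alone.

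Among the lecticans, Ncan (NM_031653) showed the highest fold change. Neurocan, its product, is a brain proteoglycan made by neurons and by astrocytes. Sham rats 1 to 5 carried 58, 54.3, 58.3, 53.9 and 51.3 CPM of Ncan, and stimulated rats 6 to 10 carried 65, 264, 55.7, 82.3 and 106 CPM. Sham rats were thus close together, while 4 of 5 stimulated rats lay above all of them and rat 8 lay within their range. Mean Ncan was 55.2 ± 2.96 CPM without and 115 ± 85.8 CPM with stimulation (SD, n = 5 each). The log2FC was 1.06 (SE 0.337), with an unadjusted p of 0.00752 and an adjusted p of 0.399 in edgeR's quasi-likelihood test. Without rat 7 the log2FC was 0.49, and the unadjusted p stayed under 0.05 in all 10 fits that each left out one rat.

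Acan (NM_022190) encodes aggrecan, the proteoglycan most closely tied to perineuronal nets. Its level was 12.6, 10.8, 10.6, 14.1 and 10.3 CPM in sham rats 1 to 5 and 12.4, 18, 10.3, 23.7 and 11.1 CPM in stimulated rats 6 to 10. Rats 7 and 9 were above every sham rat, and rats 6, 8 and 10 were within the sham range. Its log2FC of 0.37 (SE 0.214, adjusted p = 0.577) came to 0.15 without rat 9. The rat with the highest Acan, rat 9, was therefore not the one with the highest Ncan.

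Bcan (NM_001033665), which encodes brevican, a lectican found in nets and around synapses, was counted at 385, 377, 327, 381 and 329 CPM in sham and at 349, 262, 357, 359 and 387 CPM in stimulated rats. The groups overlapped, with rat 7 the lowest of all 10 rats. The difference was small, at a log2FC of -0.07 (SE 0.102, adjusted p = 0.861). A second row with the symbol Bcan (NM_012916) had a log2FC of -0.06 (SE 0.107). Its counts stayed in a narrow proportion to the first, with 1.68 to 1.81 counts of the first per count of the second in sham and 1.58 to 1.82 in stimulated rats.

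In rat 7, the rat with the highest Ncan and the lowest Bcan, the counts of the 2 genes came to the same size. The ratio of Ncan to Bcan counts within a rat, which does not depend on how libraries are scaled, was between 0.141 and 0.178 in sham rats. It was 0.186, 1.01, 0.156, 0.229 and 0.273 in stimulated rats 6 to 10. Rat 8 was again within the sham range and the other 4 stimulated rats were above it. This ratio compares each rat with the others and not the abundance of the 2 transcripts, since transcript length was not taken into account. Whether the response of Ncan differed from that of Bcan was not tested.

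Vcan (NM_001170558) encodes versican, which belongs to the looser matrix. Its level was 6.17, 5.8, 6.59, 7.81 and 6.33 CPM in sham and 8.14, 9.1, 6.83, 7.35 and 7.74 CPM in stimulated rats. The groups overlapped through sham rat 4, and the log2FC was 0.26 (SE 0.138, adjusted p = 0.553). The matrix held 3 further rows for Vcan. NM_001170560 and NM_001170559 had log2FC values of 0.26 (SE 0.148) and 0.14 (SE 0.166), and NM_053663 had one of -0.18 (SE 0.173). The 4 rows thus did not share a sign. How reads common to several transcripts of a gene were counted was not stated, so these rows cannot be read as separate isoforms.

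The link proteins gave lower or similar values. Hapln1 (NM_019189), the link protein widely used to mark the assembly of nets, was counted at 15.1, 12.7, 14.6, 15.9 and 15.3 CPM in sham and at 20.7, 7.52, 10.7, 11.2 and 16.4 CPM in stimulated rats. Rats 7, 8 and 9 were below every sham rat and rats 6 and 10 were above every sham rat. The stimulated group thus enclosed the sham group, with a log2FC of -0.15 (SE 0.219, adjusted p = 0.862). The SD of log2 CPM of Hapln1 was 0.563 in stimulated and 0.122 in sham rats, a ratio of 4.62.

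Hapln2 (NM_022285) encodes a link protein of nodes of Ranvier on myelinated axons. It was counted at 26.6, 28.3, 27.6, 17.5 and 24.4 CPM in sham and at 19.9, 19.3, 25.2, 27.5 and 27.6 CPM in stimulated rats. Sham rat 4 was the lowest of the 10 rats, and the groups overlapped. The log2FC was -0.06 (SE 0.15, adjusted p = 0.926). Sham rat 4 was also the lowest sham rat for Mbp, the gene of myelin basic protein, at 544 CPM against 752 to 845 CPM in the other 4, and the part of myelinating cells in the Hapln2 value was not tested.

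Hapln4 (NM_001108398), whose product joins brevican in nets of the brainstem and cerebellum, was counted at 299.8, 360.5, 283, 305 and 341 CPM in sham and at 277, 316, 328, 440.4 and 349 CPM in stimulated rats. Rat 9 was the highest and rat 6 the lowest of the 10 rats. The log2FC was 0.11 (SE 0.115, adjusted p = 0.791). For none of the 3 link proteins was the unadjusted p under 0.05.

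Tenascins are large glycoproteins that cross-link lecticans. Tnc (NM_053861), tenascin-C, is prominent in development and in reactive tissue. It was the gene of this set whose groups did not overlap: sham rats 1 to 5 carried 7.27, 6.41, 7.73, 6.7 and 4.65 CPM and stimulated rats 6 to 10 carried 8.96, 49.6, 9.83, 10 and 14.9 CPM. The lowest stimulated rat, rat 6, was close to the highest sham rat, rat 3, and rat 7 was far above all others. Mean Tnc was 6.55 ± 1.18 CPM without and 18.7 ± 17.4 CPM with stimulation (SD, n = 5 each). The log2FC was 1.52 (SE 0.429), with an unadjusted p of 0.0034 and an adjusted p of 0.38 in edgeR's quasi-likelihood test. Without rat 7 the log2FC of Tnc was 0.74, and the unadjusted p stayed under 0.05 in all 10 fits that each left out one rat.

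Tnr (NM_013045), tenascin-R, is the tenascin of the adult brain and a structural partner of aggrecan in nets. It was counted at 46.8, 55, 65, 59.2 and 45.3 CPM in sham and at 64.8, 49.3, 40.4, 62 and 29.7 CPM in stimulated rats. Rats 8 and 10 were below every sham rat, and the other 3 stimulated rats were within the sham range. The log2FC was -0.14 (SE 0.187, adjusted p = 0.842). It ranged from -0.27 without rat 6 to -0.0023 without rat 10. Within a rat there were 0.103 to 0.155 counts of Tnc per count of Tnr in sham rats. In stimulated rats 6 to 10 there were 0.138, 1.01, 0.243, 0.162 and 0.503, so that rat 6 remained within the sham range.

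Has2 (NM_013153), one of 3 enzymes that make hyaluronan, was counted rarely. Sham rats 1 to 5 had 9, 0, 9, 4 and 9 counts and stimulated rats 6 to 10 had 9, 46, 15, 9 and 37 counts. In sham rat 2 the 3 counts that a count of 0 allows correspond to 0.229 CPM. On the scale of normalised libraries, rats 7, 8 and 10 (2.14, 0.958 and 1.91 CPM) were above the highest sham rat (rat 1, 0.524 CPM), and rats 6 and 9 (0.407 and 0.459 CPM) were within the sham range. The log2FC was 1.87 (SE 0.625), with an unadjusted p of 0.01 and an adjusted p of 0.409 in edgeR's quasi-likelihood test. Without rat 7 it was 1.53. With so few counts the width of the estimate is set in part by counting error.

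**Figure D2:**
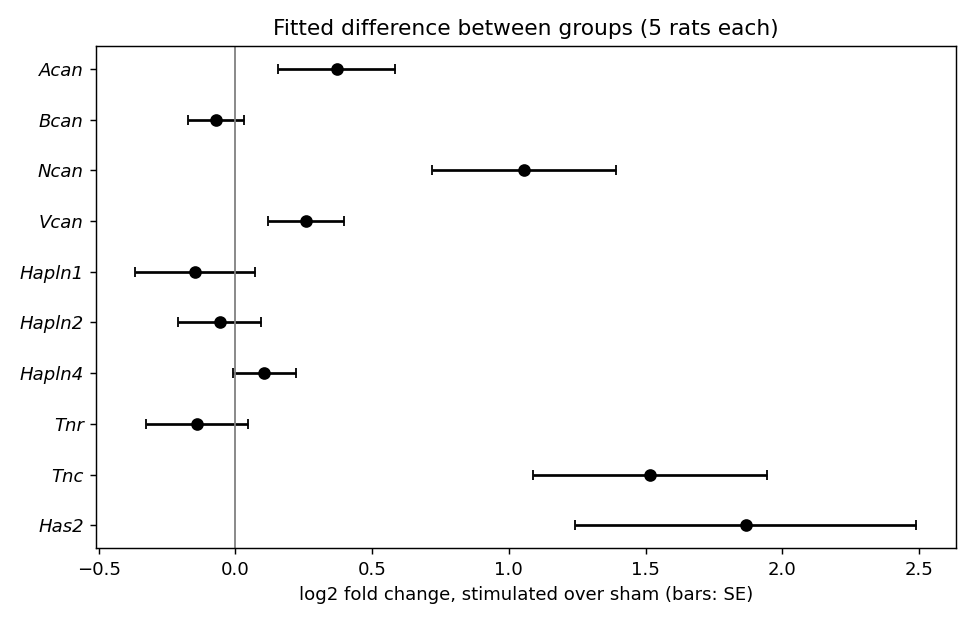
Log2FC of each gene, stimulated over sham (horizontal axis), from the fit over all features; points are estimates and bars are standard errors. The estimates of Ncan, Tnc and Has2 are 1.06, 1.52 and 1.87, and those of the other 7 genes lie between -0.15 and 0.37.

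Relative to the sham mean, Ncan, Tnc and Has2 were higher by 2.26, 2.92 and 2.78 on the log2 scale in rat 7 and by 0.94, 1.19 and 2.62 in rat 10. In rat 8 the same genes differed from the sham mean by 0.01, 0.59 and 1.62. Rat 7 was the highest of the 10 rats for 4 genes, Vcan being the fourth, and the lowest for 2, Bcan and Hapln1. Genes of the set thus moved in both directions in a single library.

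**Figure D3:**
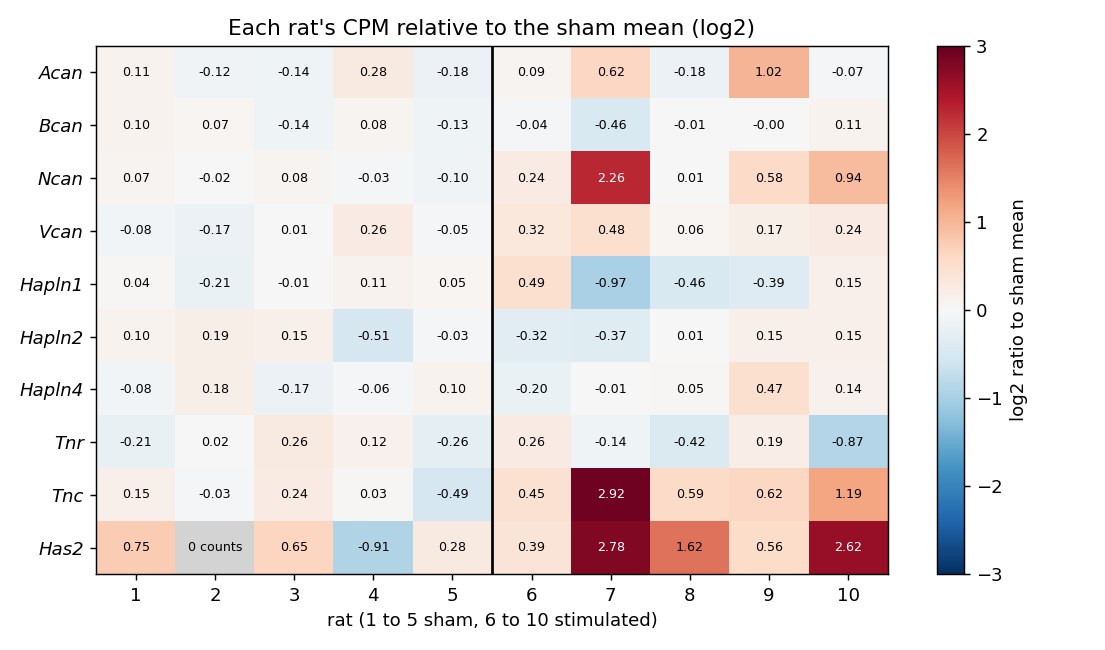
Log2 ratio of the CPM of each rat to the mean CPM of sham rats, for 10 genes (rows) and 10 rats (columns, sham to the left of the line); red is higher, blue is lower and grey marks a count of 0. The highest value is 2.92 for Tnc in rat 7, and the lowest among stimulated rats is -0.97 for Hapln1 in the same rat.

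Differences between stimulated rats were wider than those between sham rats for most of the set. The SD of log2 CPM was larger in stimulated rats for 7 of 10 genes, beside 69.5% of all features, so the count was near that of all features. The median ratio of the SDs was 1.96 for the 10 genes and 1.37 for all features. Ncan had the highest ratio, 11.4, from an SD of 0.885 among stimulated and 0.0775 among sham rats. Hapln1 and Tnc followed, the latter with a ratio of 3.66. Vcan, Hapln2 and Has2 had ratios of 0.966, 0.88 and 0.913.

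Each lectican gene of the rat genome lies next to the gene of a link protein. In the RefSeq annotation of GRCr8 no gene started between the starts of Ncan and Hapln4, Bcan and Hapln2, Vcan and Hapln1, or Acan and Hapln3. Neighbours in these pairs did not keep a fixed proportion in every rat. The log2 ratio of Ncan to Hapln4 counts was -2.73 to -2.28 in sham rats and -2.56 to -0.26 in stimulated rats, with rat 7 the highest. The log2 ratio of Vcan to Hapln1 was -1.29 to -1.03 in sham rats. It was -1.34, 0.27, -0.65, -0.61 and -1.08 in stimulated rats 6 to 10, so that rats 7, 8 and 9 were above the sham range. The log2 ratio of Bcan to Hapln2 was 3.56 to 4.45 in sham and 3.71 to 4.13 in stimulated rats, and that of Acan to Hapln3 was 3.17 to 4.42 and 2.90 to 4.61. These values describe each pair and were not tested.

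**Figure D4:**
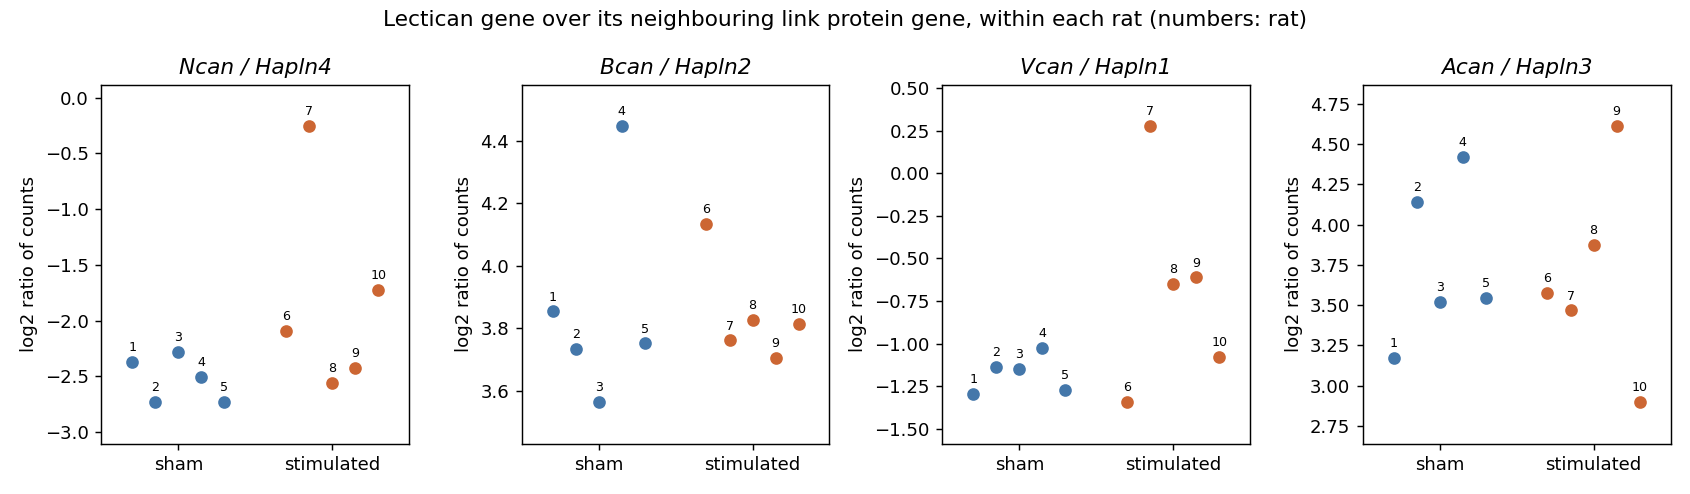
Log2 ratio of the counts of a lectican gene to those of its neighbouring link protein gene within each rat (vertical axes, one scale per pair); points are rats, labelled by number. Rat 7 is highest for Ncan over Hapln4 and for Vcan over Hapln1, and the groups overlap in all 4 pairs.

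The features whose log2 CPM followed each lectican most closely over the 10 rats differed from one lectican to the next. For Ncan they included S1pr3, a sphingosine 1-phosphate receptor, with r = 0.99 and Gadd45a with r = 0.99. For Acan they were Ntrk3, the neurotrophin-3 receptor, with r = 0.97, Top1 with r = 0.94 and Braf with r = 0.94. For Bcan they were Zic2, Cand2 and Adap1, each with r = 0.92. For Vcan they were Hdlbp (r = 0.97), Hspa13 (r = 0.93) and Mgat5 (r = 0.91). These are the extremes among 9678 features over 10 points of unequal spread. Without the 2 rats farthest from the median the values were lower, 0.93 (S1pr3) and 0.83 (Gadd45a) for Ncan, from 0.90 (Ntrk3) to 0.65 (Braf) for Acan, from 0.71 (Cand2) to 0.60 (Adap1) for Bcan and from 0.94 (Hdlbp) to 0.80 (Mgat5) for Vcan.

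Levels of glial, vascular and neuronal markers were set beside these values. Gfap, the intermediate filament of astrocytes, was counted at 1327 to 1927 CPM in sham rats and at 1326, 6469, 1375, 2079 and 5396 CPM in stimulated rats 6 to 10, so rats 7 and 10 were highest for Gfap as for Ncan, Tnc and Has2. The mean log2 CPM over all 9 astrocyte markers was 7.59 to 7.82 in sham and 7.65 to 8.0 in stimulated rats, and rat 7 had the lowest of the stimulated values. At an unadjusted p-value under 0.05, reached in this direction by 6.7% of all features, 4 of these 9 markers were higher and 0 were lower. Fos, an immediate early gene, was counted at 3.26 to 5.32 CPM in sham rats and at 5.61, 106, 5.24, 50.3 and 61.7 CPM in stimulated rats 6 to 10. All 10 immediate early genes were higher at an unadjusted p-value under 0.05. The same threshold was passed by 5 of 8 endothelial markers, 3 of 8 markers of pericytes and fibroblasts and 2 of 8 microglial markers, each higher in stimulated rats, and by 0 markers of the other cell types. The part of astrocytes, of these other cells and of recent activity in the Ncan, Tnc and Has2 values was not tested. The study's list of altered genes from these animals already holds Fos, Junb, Egr1, Egr2, Egr4, Arc and Nr4a1 of the immediate early genes. It also holds Aqp4 of the astrocyte markers and Pecam1 and Esam of the endothelial markers. For these genes the marker counts above restate that list and are no independent evidence.

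Pvalb, the calcium-binding protein of the interneurons that most often carry nets, was counted at 53.6, 46, 40.3, 49 and 57.8 CPM in sham and at 52.1, 36.3, 46.9, 40.3 and 33 CPM in stimulated rats. The groups overlapped, with a log2FC of -0.24 (SE 0.136, adjusted p = 0.567). The mean log2 CPM over 10 interneuron markers was 5.85 to 5.96 in sham and 5.48 to 5.98 in stimulated rats, with rat 7 the lowest. Pdgfra, a marker of oligodendrocyte precursors, which transcribe several lecticans, was at 49.7 to 59.7 CPM in sham and 45.6 to 55 CPM in stimulated rats. Over 6 precursor markers the mean log2 CPM was 5.44 to 5.68 in sham and 4.92 to 5.58 in stimulated rats, and rat 7 was again the lowest. The endothelial score was 4.03 to 4.14 in sham and 4.16 to 5.12 in stimulated rats, without overlap and with rat 10 the highest, and the score of pericytes and fibroblasts 2.80 to 2.99 and 2.84 to 3.68. No listed marker of any cell type was at 0 in all rats. The other lists covered pyramidal cells of CA1 and of CA3, dentate granule cells, neurons in general, oligodendrocytes, microglia and choroid plexus. Their scores overlapped between the groups, but every list had a stimulated rat outside the sham range. For dentate granule cells rats 7 and 10 were below it (5.56 and 5.64, sham 5.98 to 6.38) and rat 9 above it (6.66). Rats 7, 9 and 10 were below it for neurons in general (8.66, 8.67 and 8.51, sham 8.72 to 8.81). Rat 7 was below it for oligodendrocytes (7.29, sham 7.56 to 8.08). Rats 7 and 9 were above it for microglia (5.54 and 5.41, sham 4.88 to 5.27). What part these cells had in the matrix gene values was not tested.

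The genes that build, modify, cut and bind this matrix were examined through 7 lists with 83 entries, 69 of them tested. Of these, 0 had an adjusted p-value under 0.05. At an unadjusted p-value under 0.05, stimulated rats had higher values of 19 (27.5%) and lower values of 2 (2.9%), beside 6.7% and 3.16% of all features. The lists were chosen with results of these data known, and their median log2FC was 0.08. Leaving out a rat of either group changed the counts of genes at this threshold. Without rat 7, 11 were higher and 3 lower, and without sham rat 5 there were 10 and 4. Over all features, 1693 passed this threshold without rat 7 and 1823 without sham rat 5, beside 2214 with all rats.

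Hyaluronan metabolism and binding gave 1 higher gene each at this threshold, of 7 and 6 tested, beside 6.7% of all features. In both lists 0 were lower, beside 3.16%. Has1, a second hyaluronan synthase, had 3, 6, 11, 14 and 7 counts in sham and 8, 24, 17, 35 and 8 counts in stimulated rats, a log2FC of 1.16 (SE 0.5, adjusted p = 0.47). Rats 7, 8 and 9 were above the sham range for Has1, so its highest rat was not the highest for Has2. The most highly counted gene of this list, the hyaluronidase Hyal2, had a log2FC of 0.08 (SE 0.127). Cd44, the main cell-surface receptor of hyaluronan, was counted at 4.79 to 7.33 CPM in sham rats and at 5.2, 95.3, 5.11, 13.9 and 20.5 CPM in stimulated rats 6 to 10. Its log2FC was 2.23 (SE 0.672, adjusted p = 0.396). The other 6 tested genes of hyaluronan synthesis and removal and the other 5 receptors did not reach the threshold, and Spam1, a hyaluronidase of sperm, was at 0 in all rats.

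Among other brain chondroitin sulfate proteoglycans and matrix partners, 4 genes were higher and 1 lower of 14 tested. The shares of all features were 6.7% higher and 3.16% lower. One of the 4, Sema3a, passed the filter on low counts through the stimulated rats alone, so that it had to differ once tested, and it is also among the 19. Tnfaip6, an enzyme that transfers proteins onto hyaluronan, was counted at 0.653 to 1.13 CPM in sham and at 0.543, 7.15, 1.02, 1.53 and 6.4 CPM in stimulated rats 6 to 10 (log2FC 2.04, SE 0.611, adjusted p = 0.396). Bgn, the small proteoglycan biglycan, was at 23.6 to 29.1 CPM in sham and at 25.3, 52.3, 31.4, 30.8 and 46.7 CPM in stimulated rats (log2FC 0.55, SE 0.176, adjusted p = 0.399). Rats 7 and 10 were the highest for both. Sema3a, a secreted guidance protein held in perineuronal nets, had 2 counts in all sham rats together and 59 counts in stimulated rats, 37 of them in rat 7. The ratio of its summed counts per normalised library was 29.0 (exact 95% interval 7.69 to 245), a description that covers counting error alone and is no test of the groups.

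Ptprz1, a receptor phosphatase whose secreted form, phosphacan, is a brain proteoglycan, was singled out after its values were seen as the gene of these lists whose groups did not overlap with stimulated rats higher. That was 1 of the 69 tested genes, beside 0.695% of all features. Ptprz1 was counted at 133, 96.2, 132, 129 and 124 CPM in sham and at 139, 198, 137, 146 and 140.0 CPM in stimulated rats, with a log2FC of 0.31 (SE 0.12, adjusted p = 0.431). Crtac1 was the lower gene, at 175 to 201 CPM in sham and 171, 152, 177, 162 and 106 CPM in stimulated rats (log2FC -0.32, SE 0.119, adjusted p = 0.423). Spock2, the testican with the highest count of the list, had a log2FC of -0.04 (SE 0.0945).

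The enzymes that build and sulfate chondroitin sulfate chains were held to the same threshold. Of 12 tested genes of chain synthesis 1 was higher and 1 lower, and of 8 sulfotransferase genes 1 was higher and 0 lower. Beside these stood 6.7% and 3.16% of all features, and counts of 1 gene in such short lists are no result about the enzymes. Chsy1, a chondroitin synthase, was at 13.2 to 17.7 CPM in sham and 15.7, 36.8, 17.9, 25.1 and 15.9 CPM in stimulated rats (log2FC 0.54, SE 0.215, adjusted p = 0.446). Chpf2, a partner in the same polymerisation, was at 46.9 to 54.7 CPM in sham and 37.7 to 49.2 CPM in stimulated rats (log2FC -0.22, SE 0.095, adjusted p = 0.464). Chst3, a 6-O-sulfotransferase, was near 1 CPM or less in most rats, with 41 counts in all sham rats, and had a log2FC of 1.19 (SE 0.465, adjusted p = 0.431). The most highly counted genes of both lists, B3gat3 and Chst11, had log2FC values of -0.17 (SE 0.0948) and 0.32 (SE 0.188).

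Proteases that cut lecticans and the inhibitors of those proteases held the largest number of genes at the threshold, 6 of 12 higher and 0 lower. Over all features 6.7% were higher and 3.16% lower. Mmp9, Adamts1 and Timp1 of this list are also among the study's altered genes from these animals. Mmp9, a gelatinase, was counted at 0.175 to 1.32 CPM in sham rats and at 1.86, 20.4, 0.894, 17.5 and 56.9 CPM in stimulated rats 6 to 10. Its log2FC was 4.38 (SE 0.915, adjusted p = 0.376), and its highest rat was rat 10. Adamts1, which cleaves aggrecan and versican, was at 4.63 to 6.64 CPM in sham and at 5.43, 168, 6.51, 7.5 and 13.3 CPM in stimulated rats (log2FC 2.91, SE 0.88, adjusted p = 0.396). Rat 7 alone set most of the Adamts1 value.

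Timp1, an inhibitor of metalloproteinases, was at 1.84 to 2.82 CPM in sham and at 1.49, 67.4, 1.72, 20.6 and 8.82 CPM in stimulated rats (log2FC 3.09, SE 0.835, adjusted p = 0.376). Adamts9 was at 5.8 to 9.84 CPM in sham and at 8.64, 36.2, 10.3, 10.6 and 13.1 CPM in stimulated rats (log2FC 0.98, SE 0.347, adjusted p = 0.415). For Mmp9 and Timp1, as for Ncan and Cd44, rat 8 was within the sham range or below it. Timp2, the inhibitor with the highest count, had a log2FC of -0.11 (SE 0.108).

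Of 10 tested receptors for chondroitin sulfate proteoglycans and tenascins, 5 were higher and 0 lower, beside 6.7% and 3.16% of all features. Ptprf, a receptor phosphatase, was at 64.1 to 87 CPM in sham and 77.5, 150.0, 77.8, 101 and 124 CPM in stimulated rats (log2FC 0.44, SE 0.169, adjusted p = 0.431). Egfr, Itgb1 and Rtn4rl2, the last from the Nogo receptor family, had log2FC values of 0.49 (SE 0.198), 0.28 (SE 0.114) and 0.73 (SE 0.338). Rtn4rl2 was close to the threshold, with an unadjusted p of 0.0487 in edgeR's quasi-likelihood test. It was at 38.6 to 65.9 CPM in sham and 44.8, 87, 43, 192 and 72.6 CPM in stimulated rats 6 to 10. Ptprs, the receptor phosphatase best known for binding chondroitin sulfate and the most highly counted of the list, was at 519.6 to 615 CPM in sham and 523 to 589 CPM in stimulated rats, with a log2FC of -0.06 (SE 0.0693, adjusted p = 0.79).

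**Figure D5:**
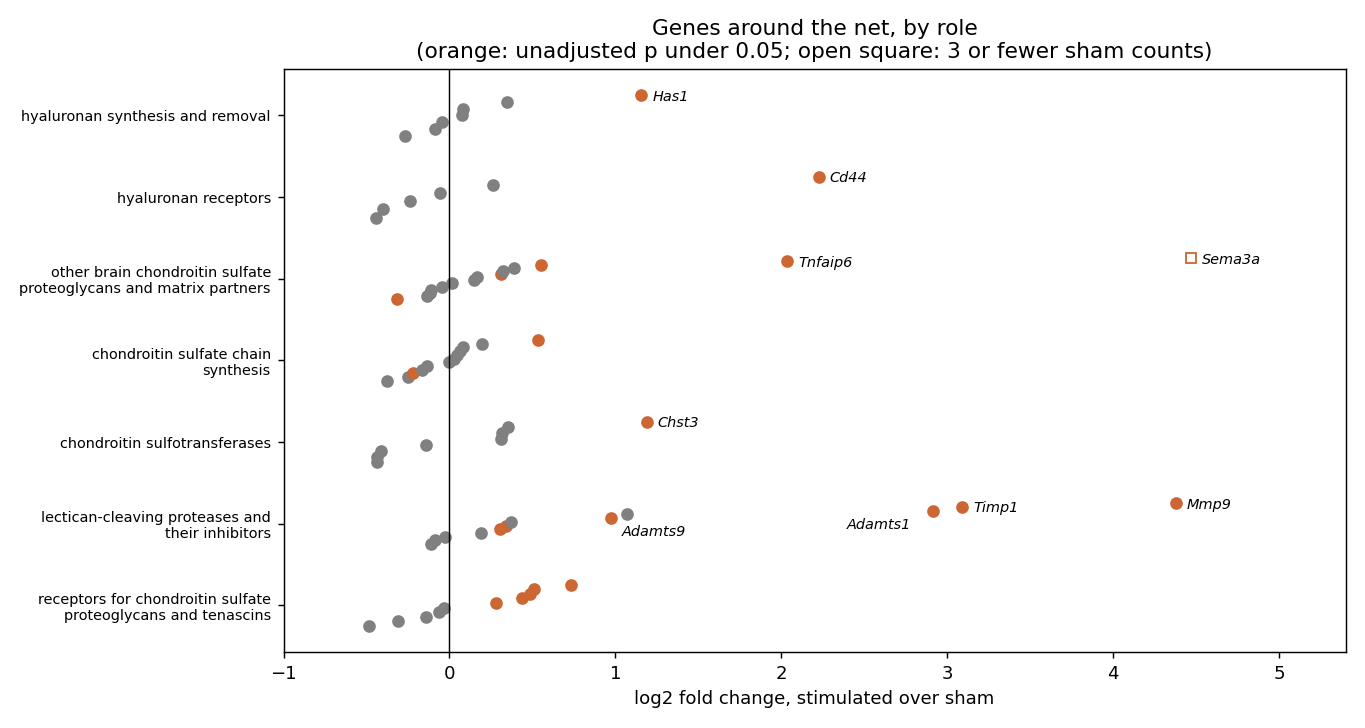
Log2FC, stimulated over sham (horizontal axis), of the 69 tested genes in 7 lists; points are genes, orange marks an unadjusted p-value under 0.05 and the open square marks a gene with 2 sham counts (Sema3a), whose fitted value is not a bound. Orange points lie mostly to the right, 19 higher and 2 lower, and none passed adjustment over all features.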

How the data were processed

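Poly(A) RNA was read in single reads of 36 cycles. The deposited values are raw counts per transcript. According to the methods, the authors aligned reads with BWA to the rn4 build and counted them with their own script against Ensembl genes, though rows carry RefSeq identifiers; the treatment of shared reads and of strand was not stated. Unaligned reads, a row of their own, were not analysed. Symbols came from the RefSeq table of GRCr8 (57.8% of tested features). Features with a summed count under the 30th percentile (46) were left out. Groups were compared with edgeR 4.0.16 (R 4.3.3, quasi-likelihood test, TMM factors, no covariate, Benjamini-Hochberg adjustment over 22447 features). SE is the log2 fold change divided by the square root of F. Log2 CPM used a prior count of 2. The script was tested on simulated counts. DESeq2 1.42.0 and limma 3.58.1 were alternatives.

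The members and lists were chosen with earlier results of these data known. Named were all 10 members, of each pathway list up to 4 genes by lowest unadjusted p under 0.05 and the most highly counted gene, for each lectican the 3 features with the highest r (mean CPM of at least 5), and fixed markers. One feature that this rule names for Ncan is not reported here. The methods count 4 stimulated animals without naming the one left out, so all 5 labelled ones were used and each was left out in turn. The labels gave no sequencing batch. A rat is a replicate, and intervals and count limits cover counting error only. Aligned counts were 13552309 to 24086059 per rat.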

Additional observations from a re-analysis of the deposited data

Results flagged for a closer look

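In each group of 5 rats the highest or lowest value was set against the others by Dixon's ratio (its gap to the nearest rat over the range of the group), with a limit of 0.71. The ratio was taken on CPM for genes and on mean log2 CPM for marker lists, and it depends on that scale. Of 108 groups of values examined, 14 were above the limit, and 9 of the 14 were rat 7. Chance flags about 1 in 20 independent groups. These groups are not independent, since they share the same 10 libraries and many of the genes were named for a low p-value, so the number of flags has no chance value to be set against. Among the matrix genes these were Ncan (264 CPM, ratio 0.76) and Tnc (49.6 CPM, ratio 0.853), both in rat 7. On log2 CPM neither gene would be above the limit. In rat 7, the next rat (rat 10) and the lowest stimulated rat, log2 CPM was 8.05, 6.73 and 5.80 for Ncan. It was 5.63, 3.91 and 3.18 for Tnc. Among the genes around the net rat 7 stood apart for Cd44 (0.829), Sema3a (0.749), Timp1 (0.711), Adamts1 (0.951), Adamts9 (0.838) and Ptprz1 (0.856).

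Rat 7 was also low for the markers of oligodendrocyte precursors (mean log2 CPM 4.92, ratio 0.744), and rat 10 was high for endothelial markers (5.12, ratio 0.737). In sham rats, rat 4 held the 2 counts of Sema3a (ratio 1, which any lone count would give), rat 1 was low for Mmp9 (0.712), rat 2 was low for Ptprz1 (0.775) and rat 2 was high for CA3 markers (0.746). The cause was not tested for any of these.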

How the results depend on the processing

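No paired analysis was possible because the rats of the 2 groups share no number or litter in the labels. The count of the 10 genes at an adjusted p-value under 0.05 was 0 in all fits. Over all features it was 0 in the main fit, 33 with DESeq2 and 119 with edgeR's likelihood ratio test, and 0 in the others. Requiring at least 10 counts in at least 4 samples left Has2 untested, so that 2 genes, Ncan and Tnc, were higher at an unadjusted p-value under 0.05, against 3 in each other scaling, filter or test. Leaving out each rat gave 3 to 4 higher and 0 lower, 6 to 9 genes with the larger SD in stimulated rats, 10 to 20 pathway genes higher and 1 to 6 lower, and 1693 to 3131 features at an unadjusted p-value under 0.05. With library size alone, 1 pathway gene was lower.

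The log2 fold change ranged over the fits that left out one rat from 0.49 to 1.21 for Ncan, 0.74 to 1.68 for Tnc and 1.53 to 2.09 for Has2, with adjusted p-values over all alternatives of 0.132 to 0.66, 0.0612 to 0.66 and 0.142 to 0.66. For Bcan it ranged from -0.12 to 0.014, for Hapln1 from -0.38 to 0.0036 and for Hapln2 from -0.16 to 0.010, above 0 only without rat 7, and for Hapln4 from -0.0017, below 0 only without rat 9, to 0.16. Tnr ranged from -0.27 to -0.0023. The cause was not tested.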
